A study of Arabidopsis thaliana with 12 samples.

Results

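The basic helix-loop-helix (bHLH) genes SPATULA (SPT, AT4G36930), ALCATRAZ (ALC, AT5G67110), INDEHISCENT (IND, AT4G00120), HECATE1 (HEC1, AT5G67060), HECATE2 (HEC2, AT3G50330) and HECATE3 (HEC3, AT5G09750) of Arabidopsis were read from an array time course of flower formation. They are 6 of the 28327 loci on the array, chosen by locus name, and each is covered by 3 probes. SPT and IND lie on chromosome 4, ALC, HEC1 and HEC3 on chromosome 5 and HEC2 on chromosome 3. Plants carried AP1-GR, the floral regulator APETALA1 fused to the hormone-binding part of the glucocorticoid receptor, driven by the AP1 promoter (pAP1:AP1-GR), in the ap1-1 cal-1 double mutant, and every sample shared this genotype. Such plants form cauliflower-like heads of meristems, and dexamethasone (DEX) switches the fusion protein on, so that flowers form almost in step. Inflorescence tissue pooled from many plants was taken before induction (day 0), when per the study's methods it had received a mock solution, and after 2, 4 and 8 days of daily DEX. No mock-treated tissue of a later day was included, so DEX, AP1 activity and time cannot be told apart. Of 4 biologically independent sets, each array carried 2 successive time points of a set in 2 colours, which gave 4 arrays for each of the steps day 0 to day 2, day 2 to 4 and day 4 to 8, and 12 in all.

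bHLH proteins bind DNA as dimers through a basic region and pair through their helix-loop-helix. SPT is needed for the tissues that form at the carpel margins, the style, stigma, septum and transmitting tract, and the related ALC for the separation layer along which the fruit opens. IND sets up the valve margin of the fruit, and the 3 HEC proteins, which can dimerise with SPT, promote stigma and transmitting tract.

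These 6 genes did not follow one course. SPT and ALC were bright throughout and moved by less than 1.8-fold at every step, SPT downward after day 2 and ALC downward and then upward. HEC1 and HEC2 were not above background at day 0 and rose, HEC1 at the first and last steps and HEC2 after day 2, most between day 4 and day 8. Of these steps, only the rises from day 4 to day 8 held under all 17 alternative settings. The first-step rise of HEC1 was lost in 4 of 17, and that of HEC2 from day 2 to day 4 in 9 of 17. IND and HEC3 stayed at or near background on most arrays. All ratios are log2 values of later over earlier day, the estimates come from limma over the 12 arrays with SE, and the Benjamini and Hochberg adjustment of p covered all tested probes. A gene counted as called when its brightest probe moved 1.8-fold or more with an adjusted p under 0.05. Of the 18 probes, 14 were tested, all 3 of SPT, ALC, HEC1 and HEC2 and 1 each of IND and HEC3, so that 6 of 6 genes were represented. HEC1, HEC2, HEC3 and IND passed the filter on dim probes only through the later days, when HEC1 and HEC2 were brightest. IND and HEC3 passed it on 2 of 4 channels at day 8, those of sets 2 and 3. No count over the genes that passed is therefore given as support.

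The tissue label was checked against floral genes: LFY, AP3, SEP3, STM and WUS were above background in every channel, and CLV3 in all but 1 at day 8. Above-background shares ran from 55.7% to 73.6% of probes per channel, and 0 probe spots were saturated. On 10 of 12 arrays the scanner file held the ratios of the authors' series table. On the day 0 to day 2 arrays of sets 3 and 4 it did not (16.3% and 20.2% of probes equal), so detection and levels at day 0 rest on sets 1 and 2. The 4 arrays of the first step shared a slide that held no other step, and slide and step cannot be told apart there. Fewer cells of a type and less RNA per cell cannot be told apart in this bulk tissue.

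**Figure D1:**
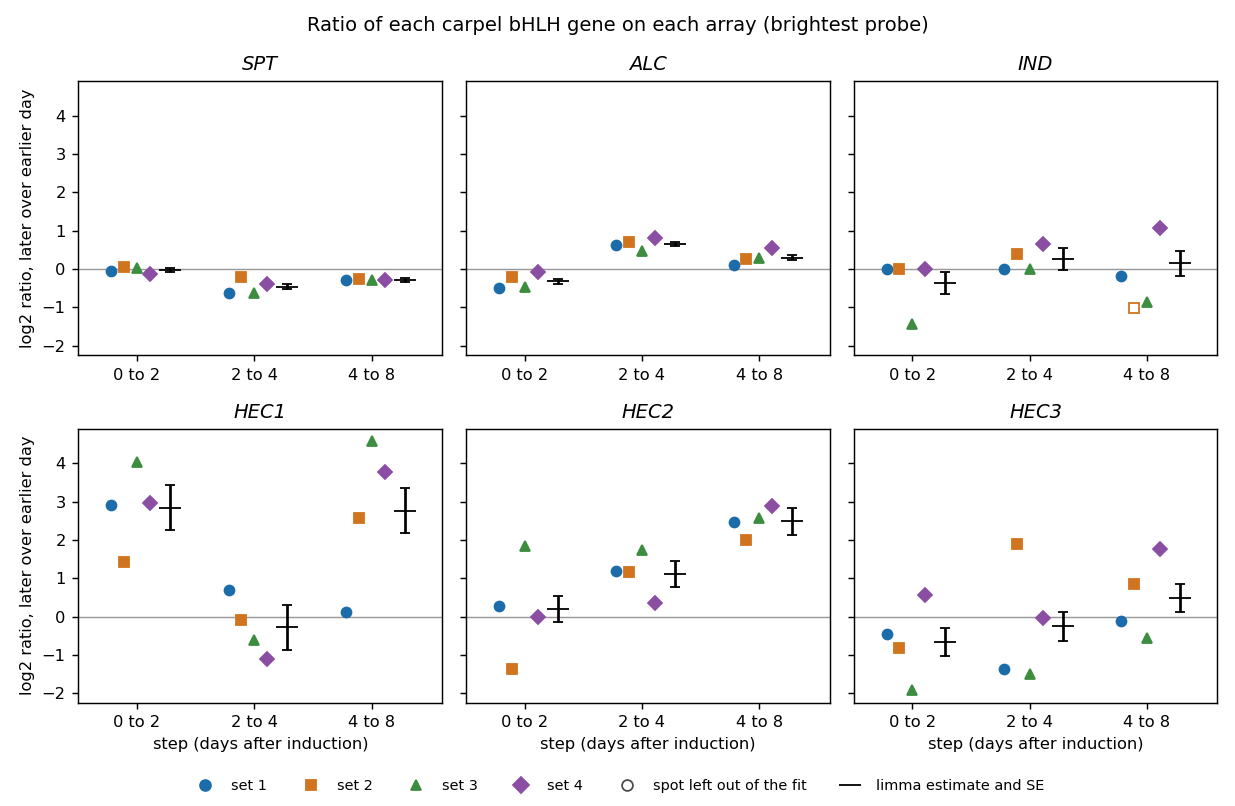
Log2 ratio of later over earlier day on each of the 12 arrays for the brightest probe of each gene, by step, with 1 symbol per replicate set and the limma estimate with its SE beside them. SPT and ALC ratios lie within 1 log2 unit of 0, HEC1 is high at the first and last steps, and HEC2 reaches 1.99 to 2.89 at the last step.

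Of the 6 genes, 1 was called from day 0 to day 2 (HEC1), against 13.9% of all 20906 genes tested. From day 2 to day 4, 1 was called (HEC2), against 8.81%, and from day 4 to day 8, 2 were called (HEC1 and HEC2), against 17.5%. All of these calls were upward. Across the whole interval from day 0 to day 8, the sum of the 3 steps, 2 were called (HEC1 and HEC2), against 26.1%, and the moderated F test over the series called the same 2, against 26%. Counts this small in a set of 6 cannot be read as unlike the background.

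SPT was nearly flat over the first 2 days. Its ratios were -0.04, 0.04, 0.03 and -0.13 in sets 1 to 4 from day 0 to day 2, 2 above and 2 below 0. From day 2 to day 4 they were -0.62, -0.22, -0.62 and -0.38, and from day 4 to day 8 they were -0.29, -0.27, -0.29 and -0.30. Every ratio of these later steps was below 0, and those of the last step lay within 0.03 of each other. The estimates were -0.03 ± 0.06 (SE, n = 4, limma adjusted p = 0.761), -0.46 ± 0.06 (n = 4, adjusted p = 0.000154) and -0.29 ± 0.06 (n = 4, adjusted p = 0.00186). The last 2 passed the adjusted p but not the fold minimum; by the adjusted p alone, 12% of all genes were lower at the second step and 34.6% at the last. SPT was thus at 0.728 of its day 2 level at day 4 and at 0.82 of its day 4 level at day 8.

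The level of SPT, as log2 processed intensity averaged over extracts, was 13.9 ± 0.07 at day 0 (SD, n = 2), 13.92 ± 0.05 at day 2, 13.46 ± 0.13 at day 4 and 13.27 ± 0.08 at day 8 (n = 4 each). Day 0 and day 2 overlapped, day 4 lay below both in every set, and day 4 and day 8 overlapped only through the extracts between 13.32 and 13.37. Over the whole series the summed change was -0.77 ± 0.11 (limma adjusted p = 0.000105), which left SPT at 0.586 of its day 0 level and just short of 1.8-fold. Its dimmest probe gave -0.89 ± 0.11 (adjusted p = 3.09e-05), which passed 1.8-fold, and so did the brightest probe without replicate set 2 (-0.86, adjusted p = 0.00117). The change from day 2 to day 4 differed from the first step by -0.43 ± 0.09 (limma adjusted p = 0.00149), whereas the last 2 steps differed by 0.17, with a 95% interval of ± 0.19 (adjusted p = 0.119).

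ALC, the closest relative of SPT among the 6, took another course. Its ratios were -0.50, -0.20, -0.48 and -0.09 from day 0 to day 2. They were 0.63, 0.70, 0.47 and 0.81 from day 2 to day 4, and 0.11, 0.26, 0.28 and 0.56 from day 4 to day 8. ALC was lower at day 2 than at day 0 in 4 of 4 sets and higher at each following time point in 4 of 4 sets. The estimates were -0.32 ± 0.06 (limma adjusted p = 0.0011), 0.65 ± 0.06 (adjusted p = 9.13e-06) and 0.30 ± 0.06 (adjusted p = 0.0011; SE, n = 4 each). None reached 1.8-fold, the largest being 1.57-fold, and by the adjusted p alone 31.8% of genes were lower at the first step, 16.1% higher at the second and 24% higher at the third.

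The change of direction of ALC after day 2 was itself tested: the second step exceeded the first by 0.97 ± 0.09 (limma adjusted p = 2.01e-06), and the third differed from the second by -0.35 ± 0.09 (adjusted p = 0.00495). At day 8 ALC stood 0.64 ± 0.11 above day 0 (1.55-fold, adjusted p = 0.000362). The summed change from day 0 in single sets was 0.24, 0.77, 0.26 and 1.28, so the direction was shared and the size was not. Its levels were 14.25 ± 0.15 at day 0 (SD, n = 2), 14.2 ± 0.3 at day 2, 14.7 ± 0.24 at day 4 and 14.89 ± 0.5 at day 8 (n = 4 each). Levels of neighbouring days overlapped between extracts, unlike the ratios within arrays, which pair the days. Set 3 contributed to this, because the 2 arrays of its day 4 extract differed by 0.91 for ALC, against 0.18 or less in the other extracts that were measured on 2 arrays.

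The 3 probes of each gene gave the same order of steps for SPT and ALC. For SPT they ranged from -0.44 to -0.53 from day 2 to day 4 and from -0.23 to -0.29 from day 4 to day 8. For ALC the dimmest probe gave -0.35 ± 0.06, 0.71 ± 0.06 and 0.24 ± 0.06 at the successive steps. SPT and ALC ratios ran opposite to each other across the 12 arrays (Pearson r = -0.768 over 12 ratios, a description, since the arrays share extracts and fall into 3 steps).

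**Figure D2:**
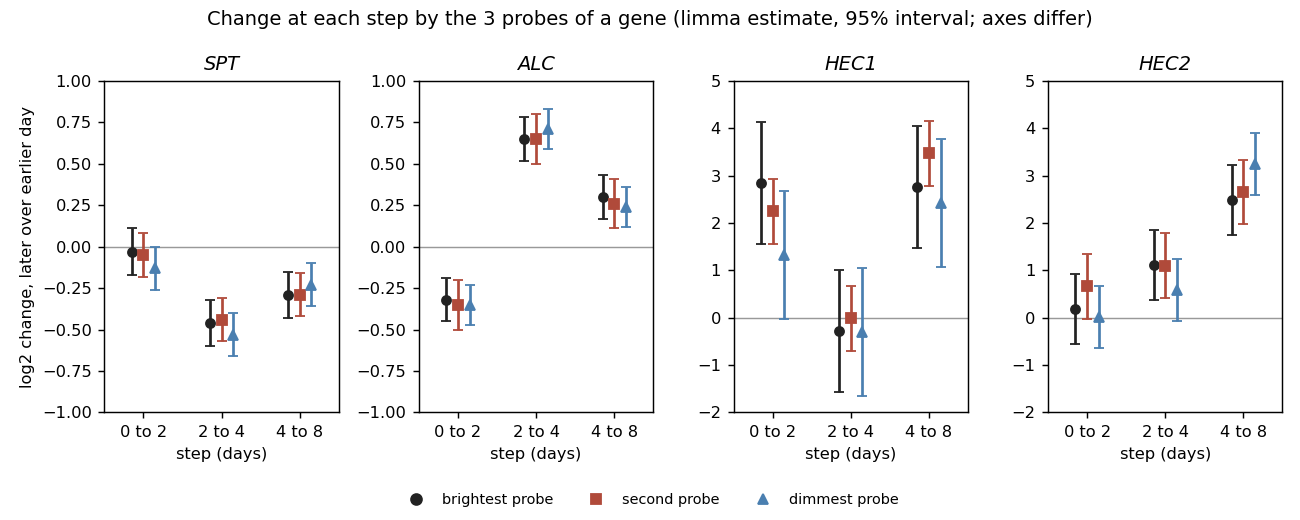
Limma estimates of the change at each step with 95% intervals for the brightest, second and dimmest probe of SPT, ALC, HEC1 and HEC2, in log2 units of later over earlier day, with a wider axis for the HEC genes. The probes of SPT and of ALC lie within 0.1 of each other at each step, while those of HEC1 range from 1.33 to 2.84 at the first.

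HEC1, a promoter of stigma and transmitting tract that also acts in meristems, had the largest net change of the 6. From day 0 to day 2 its ratios were 2.91, 1.43, 4.04 and 2.97, all above 0. From day 2 to day 4 they were 0.69, -0.10, -0.62 and -1.11, on both sides of 0. From day 4 to day 8 they were 0.11, 2.56, 4.58 and 3.78, again all above 0, with set 1 far below the rest. By this probe HEC1 was therefore higher at the later day in every set at the first and last steps and in 1 of 4 sets between them. The dimmest probe was higher in 3 of 4 sets at the first step, and the second probe in 3 of 4 sets between day 2 and day 4.

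At day 0 the brightest HEC1 probe was above background in 0 of 2 channels, against 5 of 6 at day 2, 6 of 8 at day 4 and 4 of 4 at day 8. Its mean log2 level was 5.18 ± 0.54 at day 2 (SD, n = 4) against 2.44 ± 0.23 at day 0 (n = 2), where background set a bound of 4. A bound of this kind compares the bright mean with, per array, the higher of the lowest signal marked above background and the signal of the probe itself, and it is open to dye bias where swaps are unbalanced. The bound holds for these processed intensities only, and the bright mean includes channels not above background. HEC1 at day 2 (4 sets) was at least 2.26-fold above day 0 (sets 1 and 2) by the brightest probe and 2.27-fold by the second. In sets 1 and 2 alone the brightest probe read 4.98 and 4.51 at day 2. The second read 4.35, 3.49, 7.99 and 4.91 in sets 1 to 4, above background in 2 of 6 channels. The dimmest gave no bound, its day 2 mean being 3.95. The limma estimate for the brightest probe was 2.84 ± 0.59 (n = 4, adjusted p = 0.00189). It was 2.25 ± 0.32 by the second probe (adjusted p = 0.000104) but 1.33 ± 0.62 by the dimmest (adjusted p = 0.0935). The call ended when the 2 arrays with unmatched scanner files were left out (2.17, adjusted p = 0.0904) and under normexp and loess of the scanner intensities (0.17 on the 10 matching arrays, adjusted p = 0.793).

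Between day 2 and day 4 HEC1 changed by -0.28 ± 0.59 (limma adjusted p = 0.778), with a 95% interval of ± 1.29 that leaves room for more than 1.8-fold either way. On the slide of sets 1 and 2 the mean was 0.30, and on that of sets 3 and 4 it was -0.86. This step differed from the first by -3.12 ± 0.84 (adjusted p = 0.00834) and the last step exceeded it by 3.04 ± 0.84 (adjusted p = 0.00902).

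From day 4 to day 8 HEC1 rose 6.77-fold (2.76 ± 0.59, SE, n = 4, limma adjusted p = 0.00175). The second probe gave ratios of 3.27, 3.74, 3.10 and 3.76 and an 11-fold rise (3.47 ± 0.32, adjusted p = 2.55e-06), with the 4 sets close together. Day 8 levels of the brightest probe were 9.29, 8.29, 8.61 and 8.72 against day 4 levels of 7.13, 5.01, 4.41 and 4.60, with no overlap. The high day 4 value of set 1 came from 1 of its 2 arrays, which differed by 3.64 for the same extract, whereas the second probe differed by 0.18 there. Without set 1 the rise was 3.82 (adjusted p = 0.000124), and under normexp and loess of the scanner intensities it was 1.48 (adjusted p = 0.000791 on the 10 matching arrays). The mean ratio was 1.33 on the slide of sets 1 and 2 and 4.18 on that of sets 3 and 4.

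Over the series HEC1 was, on the processed intensities, at least 26.5-fold higher at day 8 than at day 0 by the brightest probe (mean log2 levels 8.73 and 2.44). The bound was 12.7-fold by the second probe and 7.04-fold by the dimmest. The summed change in the 4 sets ran from 3.70 to 8.00. The fitted change of the brightest probe was 5.31 ± 1.03 (SE, limma adjusted p = 0.00108). This whole-series call held under all 17 alternatives run for it, but the size did not. The fitted 5.31 became 1.54 and 1.55 under normexp and loess of the scanner intensities (10 arrays and 12 files). With loess alone it became 1.95, and all of these values lay below the bound of the brightest probe.

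HEC2, which acts redundantly with HEC1 and HEC3, was first called from day 2 to day 4. Its course was not tested against that of HEC1. From day 0 to day 2 the HEC2 ratios were 0.28, -1.37, 1.83 and 0, without a shared direction. From day 2 to day 4 they were 1.18, 1.17, 1.74 and 0.35, and from day 4 to day 8 they were 2.46, 1.99, 2.58 and 2.89. All 8 of the later ratios were above 0, and those of the last step lay above every ratio of the second.

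The brightest HEC2 probe was above background in 0 of 2 channels at day 0 and 0 of 6 at day 2, then in 4 of 8 at day 4 and 4 of 4 at day 8. Its extracts had log2 levels of 3.43 and 4.02 at day 0 (sets 1 and 2), and of 3.72, 3.22, 3.50 and 3.08 at day 2. At day 4 they were 4.65, 4.31, 4.77 and 3.80, and at day 8 they were 7.17, 6.24, 6.90 and 7.55. Day 8 stood clear of every earlier extract. Day 4 levels lay above day 2 in each extract but overlapped with day 0. The day 4 extract of set 3 was above background on 0 of 2 arrays, so it has no order against day 2. Days 0 and 2 were both below background and have no order. From day 0 to day 2 the estimate was 0.19 ± 0.34 (limma adjusted p = 0.676), and no fold is given.

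From day 2 to day 4 the bound from the processed intensities put HEC2 1.22-fold higher by the brightest probe and 1.46-fold by the second. The brightest probe was above background in 4 of 8 channels at day 4, and its set 4 level of 3.80 lay under the 4.09 that background set for day 2. The fitted change was 1.11 ± 0.34 (SE, n = 4, limma adjusted p = 0.0275), and 1.1 ± 0.31 by the second probe (adjusted p = 0.0191) but 0.58 ± 0.30 by the dimmest (adjusted p = 0.18). This call was the least stable of the 6 genes: 9 of 17 alternatives ended it, against 4 of 17 for HEC1 at the first step, with adjusted p-values from 0.0108 to 0.217, and leaving out set 1, 2, 3 or 4 gave adjusted p-values of 0.06, 0.081, 0.0956 and 0.0677, with changes of 1.29, 0.99, 0.98 and 1.18. The change was 0.14 under normexp and loess of the scanner intensities and 0.19 with loess alone, below the bound from the levels. The second step of HEC2 differed from its first by 0.93, with an interval of ± 1.04 (adjusted p = 0.125).

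From day 4 to day 8 HEC2 rose 5.58-fold (2.48 ± 0.34, SE, n = 4, limma adjusted p = 5.91e-05). Its second probe gave 2.65 ± 0.31 (adjusted p = 1.78e-05). Its dimmest, above background at day 8 alone, was on the processed intensities at least 5.32-fold higher there than at day 4. The mean ratio was 2.22 on the slide of sets 1 and 2 and 2.74 on that of sets 3 and 4. This rise exceeded that of the preceding step by 1.37 ± 0.48 (adjusted p = 0.0288) and was called under all 17 alternatives, at 1.03 under normexp and loess. From day 0 to day 8 HEC2 was, on the processed intensities, at least 7.8-fold higher by the brightest probe and at least 9.63-fold by the second. The fitted changes of these probes were 3.78 ± 0.58 and 4.41 ± 0.54 (SE, limma adjusted p = 0.000218 and 3.61e-05). The fitted 3.78 became 1.18 to 1.23 under normexp and loess of the scanner intensities and 1.37 with loess alone, called but below these bounds.

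**Figure D3:**
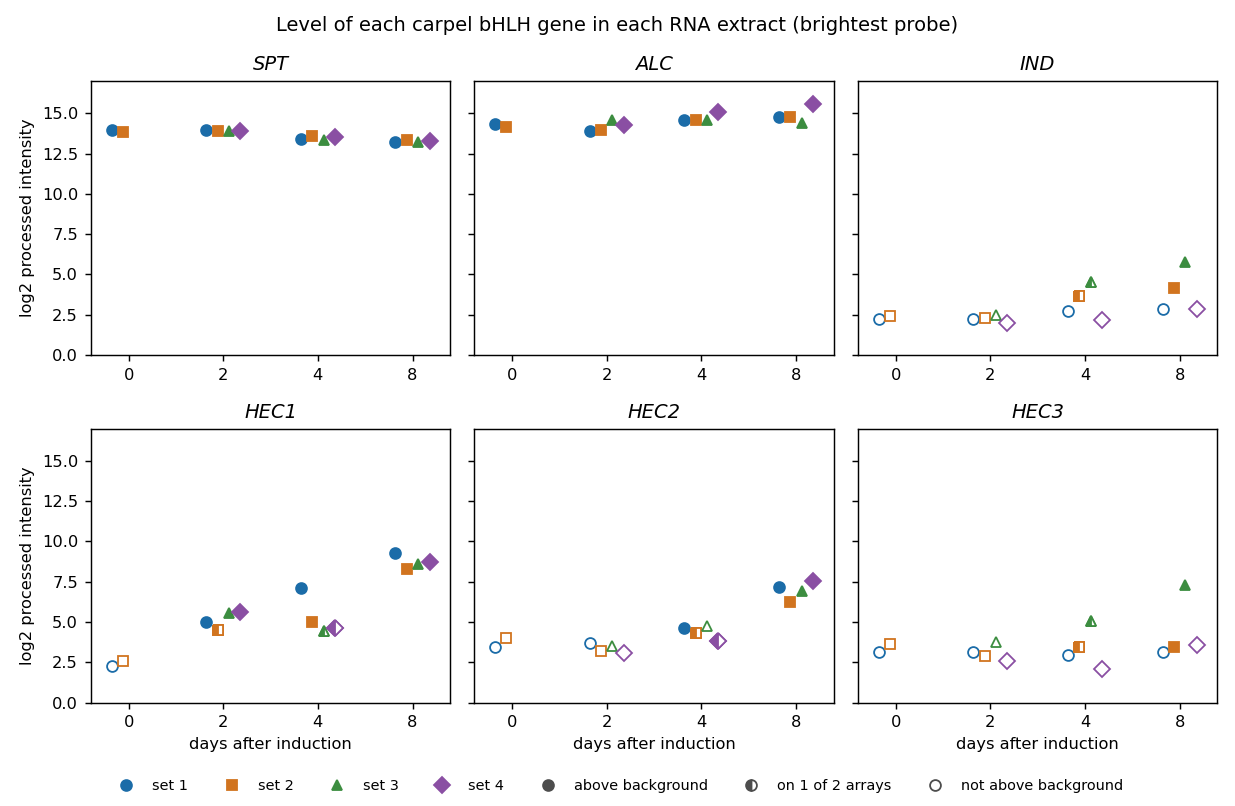
Log2 processed intensity of the brightest probe of each gene in each RNA extract by day, with 1 symbol per replicate set; filled symbols were above background on all arrays of the extract, part-filled ones on 1 of 2, and open ones on none. Levels can be read across days within a gene, not between genes; HEC1 and HEC2 lie between 6.24 and 9.29 at day 8, and IND and HEC3 are mostly open.

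HEC3 was near background at all times. Its brightest probe was above background in 0 of 2 channels at day 0, 0 of 6 at day 2, 2 of 8 at day 4 and 2 of 4 at day 8. The ratios were -0.45, -0.83, -1.92 and 0.55, then -1.38, 1.88, -1.51 and -0.05, then -0.13, 0.86, -0.55 and 1.76, with both signs at each step. The estimates of -0.66 ± 0.37, -0.26 ± 0.37 and 0.48 ± 0.37 had limma adjusted p-values of 0.162, 0.66 and 0.295, and no step was called. Its day 8 levels were 3.16, 3.45, 7.29 and 3.59, highest in set 3. Without Aquantile normalization between arrays they were 3.21, 5.93, 7.11 and 3.54, and sets 2 and 3 were those above background. At day 4 the extracts of sets 2 and 3 were above background on 1 of 2 arrays each. The 2 arrays of these extracts differed by 2.22 and 5.18. HEC3 was also listed at a ratio of exactly 0 in 3 of its 36 probe values.

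IND, the valve margin gene, was also near background. Its brightest probe was above background in 0 of 2, 0 of 6, 2 of 8 and 2 of 4 channels at days 0, 2, 4 and 8, and its other 2 probes in none at any day. Of its 36 probe values, 25 were listed at exactly 0. The brightest probe read 0, 0, -1.43 and 0, then 0, 0.38, 0 and 0.65, then -0.17, -1.02, -0.87 and 1.07, and the -1.02 of set 2 was left out of the fit because the software marked that spot as an outlier. No step was called (limma adjusted p = 0.318, 0.557 and 0.717). IND levels at day 8 were 2.85, 4.16, 5.75 and 2.87, high in sets 2 and 3 only. The ratios of sets 2 and 3 from day 4 to day 8 were nevertheless below 0. Their day 4 extracts were above background on 1 of 2 arrays each, and the 2 arrays of an extract differed by 2.42 and 3.97. The 95% intervals of the steps of IND and HEC3 were ± 0.62 to ± 0.82.

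Tests of the difference between successive steps covered 12 contrasts over the 6 genes, and 6 passed at an adjusted p below 0.05 with no fold minimum: the first difference of SPT, both of ALC, both of HEC1 and the second of HEC2. That was 3 of 6 genes for each difference, against 51.6% and 55.3% of all genes.

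**Figure D4:**
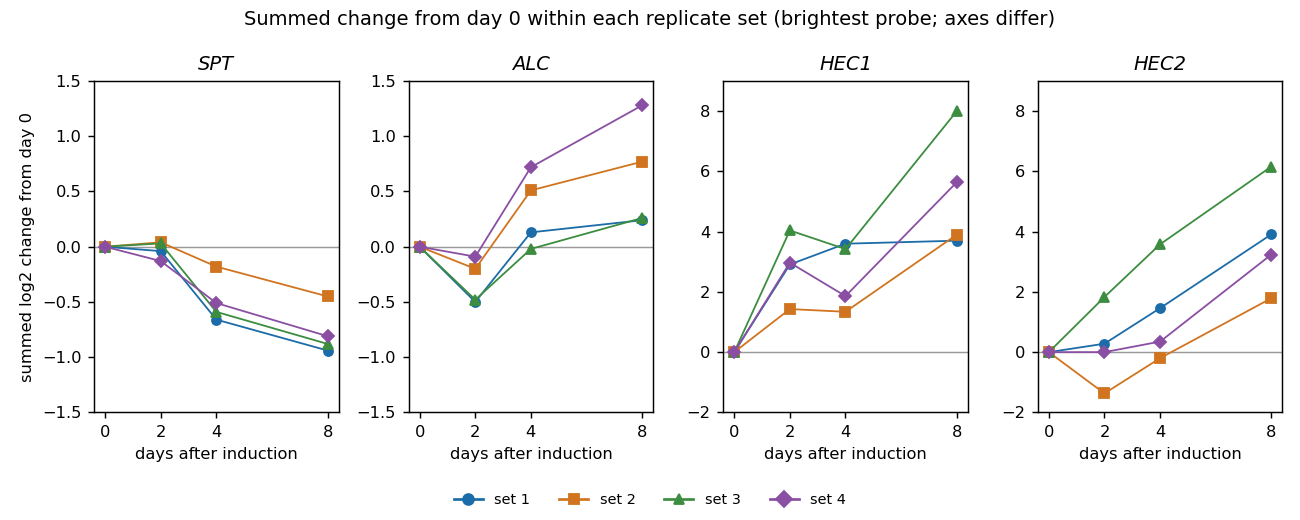
Summed log2 change from day 0 at days 2, 4 and 8 within each replicate set for the brightest probe of SPT, ALC, HEC1 and HEC2, 1 line per set, with a wider axis for the HEC genes. At day 8 SPT lies between -0.94 and -0.45 and ALC between 0.24 and 1.28, while HEC1 reaches 3.70 to 8.00 and all 4 HEC2 lines end above 0.

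Other regulators were set beside these genes. Of 13 carpel and fruit patterning regulators tested, 2 were called higher and 1 lower at the first step, 5 and 1 at the second, and 3 and 2 at the last, against 8.47% and 5.42%, 3.23% and 5.58%, and 12.3% and 5.23% of all genes higher and lower at these steps. The median changes of this list were -0.01, 0.05 and -0.34, against -0.10, 0.06 and -0.08 over all genes. Its largest called changes were those of the growth regulator JAG (4.44 ± 0.16 at the first step), the carpel gene CRC (3.18 ± 0.21 at the last), the organ identity gene AG (2.88 ± 0.10 at the first) and the ovule gene STK (-2.14 ± 0.36 at the first; SE, n = 4 each). STK was above background in 2 of 2, 5 of 6, 0 of 8 and 0 of 4 channels at days 0, 2, 4 and 8. It was also called lower at the second and last steps. The size of the second change is therefore uncertain, and the last call lies between days without signal above background. SHP1 and SHP2, which act with IND in the valve margin, rose at the last step by 1.91 ± 0.17 and 1.48 ± 0.16 (limma adjusted p = 2.18e-06 and 1.05e-05).

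Of 10 style and transmitting tract regulators, 8 were tested, and 2 rose and 2 fell at the first step, 4 rose and 1 fell at the second, and 2 rose and 1 fell at the last. Of all genes, 8.47% and 5.42%, 3.23% and 5.58%, and 12.3% and 5.23% were called higher and lower at these steps. The same shares apply to the lists that follow. The median changes of the style and transmitting tract list were 0.05, 0.83 and -0.08 at the 3 steps, against -0.1, 0.06 and -0.08 over all genes. The style regulators NGA3, NGA2 and NGA1 rose by 2.48 ± 0.21, 2.27 ± 0.12 and 1.78 ± 0.12 from day 2 to day 4, and the bHLH gene BEE3 rose by 2.06 ± 0.35 from day 0 to day 2 (limma, SE, n = 4) and changed by -1.69 ± 0.35 at the next step. BEE3 was above background in 1 of 2, 6 of 6 and 4 of 8 channels at days 0, 2 and 4, which limits the size of both changes. HAF and BEE1, bHLH genes of the transmitting tract, did not pass the filter. Among 7 relatives of SPT and ALC in the phytochrome-interacting group, HFR1 rose at the second step (2.12 ± 0.17) and PIL1 and PIF5 at the last (1.46 ± 0.33 and 1.02 ± 0.11). Of 13 auxin, gibberellin, cytokinin and wall genes tied to these factors, 11 were tested, and 1 fell at the first step, 1 rose at the second, and 1 rose and 3 fell from day 4 to day 8, among them the kinase gene WAG2 by -1.72 ± 0.14 and the response regulator gene ARR15 by -1.21 ± 0.20. The gibberellin synthesis gene GA3OX1 rose by 2.73 ± 0.30 from day 2 to day 4 and by 1.1 ± 0.30 at the last step. GA3OX1 was above background in 2 of 6 channels at day 2, so the size of the larger rise is uncertain.

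Markers of other tissues were read beside the rises of HEC1 and HEC2 at day 8. Pollen genes VGD1 and VGDH1, the root hair gene EXPA7 and the seed storage gene CRA1 were above background in 0 channels, and WER in 2 of 8 channels at day 4 alone. SESA1 was above background in 3 of 4 and COBL9 in 2 of 4 channels at day 8, and neither in any at an earlier day. The summed intensity of the 2 seed storage genes was 15.5 to 62.3 at day 8 and 7.93 to 16.1 at day 4. That of the 3 touch-related genes was 52400 to 96100 at day 2 against 23000 to 23900 at day 0, the step at which HEC1 was first called, and 27400 to 52300 at day 8 against 11900 to 15700 at day 4. Their part in the changes of HEC1 and HEC2 was not tested.

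Likeness to other genes was described by Pearson correlation over the 12 ratios, among 5510 genes called in at least 1 step. The 3 genes most like SPT were GA2OX2, a gibberellin-inactivating oxidase gene (r = 0.976), MYB6 (r = 0.942) and AT5G66790 (r = 0.927). They shared the order of the steps and the sign of the second, but not the sign of the first and last: GA2OX2 changed by 1.49, -0.08 and 0.42. Those most like ALC were RTFL21 (r = 0.975), AT3G02500 (r = 0.973) and SAUR24 (r = 0.969), and SAUR24 ran through -1.18, 0.88 and 0.28. For HEC1 they were MYB31 (r = 0.901), AT2G17500 (r = 0.898) and AT5G44260 (r = 0.877). AT2G17500 was close in size as well, at 2.28, -0.57 and 2.99. For HEC2 they were VATG3 (r = 0.895), AT1G19620 and AT3G09680 (r = 0.885 each). Their first-step changes were -0.37, -1.05 and -1.36, against 0.19 for HEC2. At the second step they were -0.15, 0.4 and -0.17, against 1.11 for HEC2, and all rose at the last. The noisier HEC3 reached r = 0.814 at most (CYP71A23) and IND 0.79 (AT2G16730, over 11 ratios). The 12 points share extracts between steps and fall into 3 groups of 4, and no test was made of them.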

How the data were processed

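In the table of the authors, a value is the log10 ratio of Cy5 to Cy3, which Feature Extraction (10.5.1.1 per the headers) had corrected for background and dye. The deposited scanner files held spot and background intensity values of both channels with quality marks. Probes had been designed on TAIR8, symbols came from a TAIR10.1 table (99.3% of loci matched), and no coordinates are given because the builds differ. The authors combined replicates in Resolver, which was not used here.

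With the dyes of the labels, each ratio was set to later over earlier day, as log2. Of 43643 probes, 28247 were tested (20906 loci), whose marks put them above background in 50% or more of the channels of some day, and 718 spots marked as outliers were left out. The series table was used because the scanner files of 2 arrays did not match it (r = 0.314 and 0.271 across probes). The model of limma 3.58.1 (R 4.3.3) had 1 coefficient per step, a dye term and moderated statistics (8 residual degrees of freedom, 12 after moderation) and was checked on simulated data. The fit took arrays as independent, although successive steps share the day 2 or day 4 extract. The number of arrays limits the precision.

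Levels were processed intensities after Aquantile normalization on the 10 matching arrays, averaged per extract. The 6 genes were given by locus. The 4 pathway lists, the markers and the rule for named genes (at most 4 genes a list, by largest called change, and the 3 genes most like each member) were chosen with earlier results of these data known; SHP1 and SHP2 were named after their values were seen. 1 gene that the rule names is not reported here. Replicate numbers mark independent sets of samples per the labels, so they pair the arrays. Deviations of same-numbered arrays from their step means correlated between -0.132 and 0.223, against -0.262 to 0.332 for differently numbered arrays. The pairing thus rests on the labels and is not visible in these correlations. Alternatives covered centring, background correction, dim and outlier spots, the dye, replicate and slide terms, the probe of a gene, the fold minimum and each set left out; those chosen after seeing the data were the median of the tested probes, any probe called, the 10 arrays with matching files, the tests between steps, the plain levels and a limit on local background at its 99.9th percentile, without which normexp could not be fitted on several arrays.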

Additional observations from a re-analysis of the deposited data

Results flagged for a closer look

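Of 35 sets of 4 values examined among the 6 genes, 3 held a value far from the other values; chance alone gives about 1 in 20. The day 4 level of ALC in replicate set 4 was 15.05, against 14.56 to 14.6 in the other sets. The ratio of IND from day 0 to day 2 was -1.43 in set 3, against ratios listed at 0 in the others, on an array whose scanner file did not match the series table. With the others listed at exactly 0, any other value would have been flagged, so the 1 in 20 does not apply to it. The day 8 level of HEC3 in set 3 was 7.29, against 3.16 to 3.59 in the others. Without Aquantile set 2 also stood high, at 5.93, with 7.11 in set 3 and 3.21 and 3.54 in sets 1 and 4.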

How the results depend on the processing

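Under all 17 alternatives the changes of ALC at each step and of SPT after day 2 kept their direction and stayed short of a call. HEC1 and HEC2 kept direction and call under all 17 from day 4 to day 8 and over the whole series. Normexp gave values as low as 1.03 among these (HEC2, day 4 to day 8). The count of called members from day 0 to day 2 was 0 with normexp and loess on 10 arrays, with loess alone, with the 12 scanner files as deposited and with the series ratios of the 10 arrays with matching files, and 2 with no fold minimum. From day 2 to day 4 it was 0 under the same 3 uses of scanner intensities, with no filter on dim probes and with no dye term, 0 to 0 when a replicate set was left out, and 3 with no fold minimum. Without the fold minimum it was 4 from day 4 to day 8, 4 over the whole interval and 4 in the F test. Passing differences between successive steps numbered 3 to 7 when a set was left out, the 3 without set 4. Calls of all genes from day 0 to day 2 ranged from 628 (12 scanner files) to 10407 (no fold minimum), around 2903. With the replicate block, fixed or random, 24 of 24 changes of single genes kept their call, and the differences that passed numbered 6 and 5.

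Changes of sign touched no called change. Without 1 set in turn, the changes that turned sign ran from -0.06 to 0.04 for SPT and -0.29 to 0.6 for HEC2 (both day 0 to day 2), -0.25 to 0.45 and -0.45 to 0.62 for IND (day 4 to day 8, day 0 to day 8) and -0.95 to 0.06 for HEC3 (day 0 to day 8). SPT from day 0 to day 2 became 0.07 after centring, 0.01 and 0.11 with normexp (10 and 12 arrays) and 0.02 with loess alone. HEC2 at that step became -0.05 with loess alone and -0.55 on the 10 arrays with matching files. For IND, day 2 to day 4 became -0.02 with normexp on 10 or 12 arrays, and day 4 to day 8 became -0.01 with loess alone and -0.25 with outlier spots kept. IND from day 0 to day 8 became -0.13 and -0.1 with normexp, -0.01 with loess alone, -0.35 with outlier spots kept, -0.09 with no dye term and -0.01 with the fixed replicate block. HEC3 with normexp became 0.04 from day 0 to day 2 (12 arrays), 0.06 from day 2 to day 4, and 0.1 and 0.19 from day 0 to day 8 (10 and 12 arrays). The cause of these changes was not tested. Without Aquantile the day 0 levels of IND, HEC1, HEC2 and HEC3 were 1.81, 2.05, 3.3 and 2.8, HEC2 at day 2 was 3, and SPT at day 8 was 13.18. Signal over background limits IND and HEC3 at all days and HEC1 and HEC2 before day 8.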
